A study of Mus musculus with 10 samples.

Results

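The genes described here are the receptors and cell-surface enzymes through which microglia sense and clear extracellular nucleotides. They were taken by symbol from the count table: the P2Y receptors *P2ry12*, *P2ry13* and *P2ry6* with the related receptor *Gpr34*, the P2X channels *P2rx4* and *P2rx7*, the enzymes *Entpd1* and *Nt5e*, and the adenosine receptors *Adora2a* and *Adora3*. All 10 were found, each in 1 row, among 55453 genes. RNA came from CD45int CD11b+ cells sorted from the hippocampus of female 3xTg mice over 15 months of age, and 10 libraries were sequenced, 5 from mice given glatiramer acetate (GA) and 5 from mice given PBS. GA, a mixture of synthetic polypeptides used against multiple sclerosis, was given in weekly doses of 0.1 mg for about 8 weeks, with an additional injection in the first week by the study's methods. Mice of both groups were retired breeders and carried the 3xTg transgenes, which the Thy1.2 promoter drives in neurons rather than in microglia. The comparison of the groups asks whether GA changed the microglial level of these genes.

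ATP and ADP leak or are released from injured and active cells. P2Y receptors are G protein-coupled and P2X receptors are ATP-gated cation channels, while CD39 (*Entpd1*) cuts ATP and ADP down to AMP and CD73 (*Nt5e*) turns AMP into adenosine, the ligand of the adenosine receptors. In microglia, P2RY12 steers processes toward sites of injury, P2RY6 responds to UDP and is tied to phagocytosis, P2RX7 is tied to inflammasome activation, and *P2ry12* and *P2ry13* are widely used as genes of the homeostatic state.

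Total counts per library ranged from 32332185 to 38764643. Levels below are CPM, the counts scaled to a common library size after TMM normalization, unless they are given as RPKM, which are CPM divided by the length of the gene's merged exons in kilobases. The 8 microglial markers summed to between 46120 and 55550 CPM in the PBS libraries and to between 48400 and 51790 CPM in the GA libraries, with none at 0 in any library. The neutrophil list, again of 8 genes, summed to 42.0 to 444 CPM in PBS libraries and 16.4 to 173 CPM in GA libraries, and all 8 were lower on average under GA, 6 of them at an unadjusted p under 0.05 (459 of 14481 genes were lower at that p) and 0 after adjustment. Of the monocyte list, which summed to 31.1 to 86.6 CPM in PBS and 36.6 to 45.9 CPM in GA libraries, 2 of 5 tested genes were lower at an unadjusted p under 0.05 and 0 after adjustment. These were *Ly6c2* (0.808 ± 0.470 and 0.208 ± 0.112 CPM) and *Chil3* (18.7 ± 13.7 and 3.97 ± 4.30 CPM), while *Ccr2* gave 31.3 ± 11.6 and 29.1 ± 1.87 CPM. *Plac8* gave 2.85 ± 1.26 and 2.78 ± 1.24 CPM, and *Ms4a4c* was higher on average under GA (3.67 ± 0.561 and 4.83 ± 2.045 CPM). The 6 markers of border-associated macrophages ranged from 43.3 to 246 CPM in the PBS group, the highest value being that of library 388_4, and from 47.3 to 185 CPM in the GA group. All PBS libraries carry the title prefix 388, whereas the GA libraries carry 394 (2 libraries) or 400 (3 libraries). The labels do not say what a prefix stands for, nor that each library is a separate mouse, so prefix and treatment cannot be told apart and p-values measure only the spread between these libraries. In these bulk samples, fewer cells of a type and less RNA per cell cannot be told apart either.

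Several of these genes are neighbours in the mouse genome (GRCm38, GENCODE M21 annotation). *P2ry12* (ENSMUSG00000036353.13, chr3:59216272-59262871) and *P2ry13* (ENSMUSG00000036362.2, chr3:59207892-59210882) lie 5389 bases apart on the minus strand, both inside *Med12l* on the other strand. *P2rx7* (ENSMUSG00000029468.17, chr5:122643911-122691432) and *P2rx4* (ENSMUSG00000029470.15, chr5:122707544-122729738) lie 16111 bases apart on the plus strand. *Gpr34* (ENSMUSG00000040229.11, chrX:13632089-13640858, plus strand) lies inside *Cask* on the other strand. *P2ry6* (ENSMUSG00000048779.5, chr7:100937630-100974649, minus strand), *Entpd1* (ENSMUSG00000048120.16, chr19:40612366-40741602, plus strand), *Nt5e* (ENSMUSG00000032420.8, chr9:88327197-88372092, plus strand), *Adora2a* (ENSMUSG00000020178.6, chr10:75316877-75334784, plus strand) and *Adora3* (ENSMUSG00000000562.5, chr3:105870858-105908926, plus strand) complete the set. *Adora3* shares 779 of its 3729 exon bases with *Tmigd3* on the same strand, so the counting could leave out reads there or give them to the other gene. *Tmigd3* itself had 34 to 107 counts per library. *P2rx7* shares 119 of its 5970 exon bases with *Mir8115* on the same strand, which had 0 counts in every library. With 0 exon bases in common, *Gm44545* overlaps *P2ry6* on the other strand, and *Gm16027*, *Gm8783* and *AC166063.1* overlap *Entpd1* on the same strand.

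The 250 bases before the RefSeq start site (GRCm38.p6) were at hand for 7 of the 10 genes, in 9 windows, with no entry for *P2ry6*, *Gpr34* or *Adora2a*. The motif AGGAAG, a core recognized by ETS factors such as the myeloid regulator PU.1, was searched on both strands and stood in 5 of the 9 windows, where 29.5% of 32851 windows of the same length held it. These were the windows of *P2ry12*, *P2ry13* and *Adora3* and 1 of the 2 windows each of *P2rx7* and *Entpd1*. Neither *P2rx4* nor *Nt5e* had a match. The motif TGACTCA was found for *P2rx7* and *Adora3* (4.46% of all windows), CACGTG for *P2ry12* (6.02%), CCCGCCC for *P2rx7* and *Nt5e* (23.4%) and TATAAA for none (12.4%), again on both strands, and none of these matches overlapped AGGAAG. The *P2ry12* window lies wholly in annotated exons of *Med12l* and is not shown. That of *Nt5e* lies wholly in annotated exons of *Nt5e* itself, so its match is not upstream of that annotation. The first *Entpd1* window holds 118 exon bases of *Tctn3*, and the first *P2rx7* window 16 of *P2rx7*. The windows of *P2ry13*, *P2rx4* and *Adora3*, which hold no annotated exon base, are shown because they start one of the most abundant members, a member without AGGAAG, and the least abundant of the members that could be tested. Capitals mark AGGAAG or its reverse complement CTTCCT, and each window reads 5′ to 3′ on the strand of the gene.
P2ry13, chr3:59210883-59211132, minus strand: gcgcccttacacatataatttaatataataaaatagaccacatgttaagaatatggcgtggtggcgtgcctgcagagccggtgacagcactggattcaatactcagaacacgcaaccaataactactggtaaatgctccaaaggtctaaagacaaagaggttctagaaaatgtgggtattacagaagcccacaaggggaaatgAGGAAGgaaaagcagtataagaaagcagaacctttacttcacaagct
P2rx4, chr5:122707294-122707543, plus strand: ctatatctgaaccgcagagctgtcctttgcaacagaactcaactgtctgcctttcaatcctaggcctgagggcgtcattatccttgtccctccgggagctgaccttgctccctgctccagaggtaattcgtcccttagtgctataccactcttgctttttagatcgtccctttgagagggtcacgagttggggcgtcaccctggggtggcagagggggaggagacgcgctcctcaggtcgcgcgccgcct
Adora3, chr3:105904171-105904420, plus strand: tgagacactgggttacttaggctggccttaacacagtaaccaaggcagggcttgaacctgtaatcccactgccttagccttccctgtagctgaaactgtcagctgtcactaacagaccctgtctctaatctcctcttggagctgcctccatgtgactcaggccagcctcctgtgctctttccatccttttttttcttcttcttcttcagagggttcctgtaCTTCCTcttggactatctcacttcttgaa
The match starts at base 204 of the *P2ry13* window and at base 222 of the *Adora3* window, counted from the 5′ end. A match in such a window is a stretch of letters and not a measured binding site.

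Microglia expressed these genes over a very wide range of levels, with 3 G protein-coupled receptors at the top and *Adora3*, *Adora2a* and *Nt5e* at the bottom. Per length, *P2ry12* reached 2594 ± 196 RPKM (SD, n = 10), the 11th highest of 14348 tested genes with a known length. The lysophosphatidylserine receptor *Gpr34* followed with 1491 ± 120 RPKM at rank 20, and the ADP receptor *P2ry13* with 1051 ± 90.6 RPKM at rank 29. These 3 ranges did not overlap, and the order held in 10 of 10 libraries. The mean level of *P2ry12* per length was 2.47 times that of its neighbour *P2ry13*. Its reads made up 0.563% to 0.718% of all counts, and all 10 genes together took 1.27% to 1.504%.

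*Entpd1* (177.7 ± 13.5 RPKM, rank 167) and *P2ry6* (115.7 ± 10.6 RPKM, rank 273) formed the middle of the order, again with ranges that did not overlap. The P2X channels were lower, *P2rx7* at 35.9 ± 2.76 RPKM and *P2rx4* at 29.3 ± 2.27 RPKM, so that *P2ry12* stood 72.3 times above *P2rx7*. The order of the channels depended on the gene length: *P2rx7* was higher in 10 of 10 libraries by merged exons and in 0 of 10 by the longest transcript, where the means were 43.4 RPKM for *P2rx7* and 52.9 RPKM for *P2rx4*. *Adora3*, the adenosine A3 receptor, had 20.2 ± 1.52 RPKM at rank 2252. The *Adora2a* and *Nt5e* levels, 0.0191 and 0.0140 RPKM, did not differ beyond their spread, with *Adora2a* the higher in 3 of 10 libraries.

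**Figure D1:**
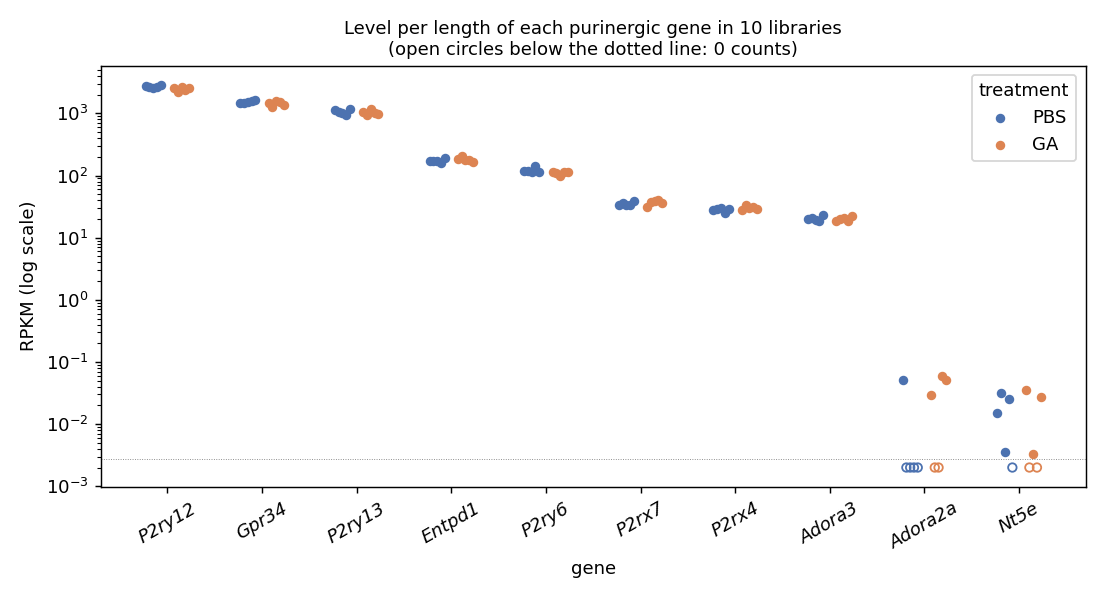
Level per length (RPKM, log scale) of each of the 10 genes in each library, PBS in blue and GA in orange, with open circles for libraries at 0 counts. *P2ry12*, *Gpr34* and *P2ry13* have means of 2594, 1491 and 1051 RPKM, *Adora3* lies near 20.2 RPKM, and *Adora2a* and *Nt5e* below 0.1 RPKM.

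The groups were set against each other in a quasi-likelihood fit (edgeR) of 14481 genes, and 8 of the 10 genes passed the filter on low counts. None of the 8 was called at an adjusted p under 0.05, where 0% of all genes tested were called (DESeq2 called 2 genes and limma-voom 0, no member among them). At an unadjusted p under 0.05, 0 of the 8 were called against 5.75% of all genes. None of the 8 had GA libraries all above or all below the PBS libraries, which 0.891% of all genes had. The 8 log2 fold changes ran from -0.13 to 0.11, with 3 above 0 and 5 below, a median of -0.03 (0.00 over all genes) and a median absolute value of 0.08 (0.11 over all genes).

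*P2ry12*, the ADP receptor that guides microglial processes, gave 7081, 6722, 6603, 6692 and 7351 CPM in PBS libraries 388_1 to 388_5. The GA libraries gave 6427 (394_1), 5570 (394_2), 6881 (400_1), 6103 (400_2) and 6614 CPM (400_3). Of the GA values, 3, in 394_1, 394_2 and 400_2, lay below every PBS value, and the other 2 lay among the PBS values. The means were 6890 ± 316 CPM under PBS and 6319 ± 506 CPM under GA (SD, n = 5 each). The log2 fold change was -0.12 with an SE of 0.061 (edgeR adjusted p = 0.872, unadjusted p = 0.0600, rank 988 among all genes), and its 95% interval of -0.26 to 0.01 spans a fall by 16.2% to a rise of 0.418%. The two-sided exact permutation test gave p = 0.0714, where 0.00794 is the smallest p possible with 5 against 5 libraries. On CPM by total count, without TMM, the exact permutation p was 0.0317 (log2 difference -0.13), and without the GA library 400_1 it was 0.0159 (-0.16), both unadjusted. These were the 2 of 13 alternatives with a permutation p under 0.05, and over the 13 the exact p ran up to 0.151.

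*P2ry13*, the sister ADP receptor, gave 2902, 2684, 2555, 2399 and 3002 CPM in PBS libraries 388_1 to 388_5. In GA libraries 394_1, 394_2, 400_1, 400_2 and 400_3 it gave 2635, 2415, 2977, 2546 and 2452 CPM. Every GA value lay within the PBS range. The means of 2708 ± 247 CPM (PBS) and 2605 ± 225 CPM (GA) correspond to a log2 fold change of -0.06 with an SE of 0.074 (95% interval -0.22 to 0.10, edgeR adjusted p = 0.951). The log2 fold change was -0.10 without the GA library 400_1 and -0.01 without the PBS library 388_5. The ratio of *P2ry12* to *P2ry13* counts within a library, which does not depend on the scaling of libraries, was 2.55 ± 0.144 under PBS and 2.43 ± 0.160 under GA (two-sided exact permutation p = 0.206, 3 ratios tested). Without the GA library 400_3 the ratio differed by -0.11 on the log2 scale with an exact permutation p of 0.0317.

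*Gpr34*, a P2Y-like receptor for lysophosphatidylserine, gave 3078, 3095, 3140, 3374 and 3475 CPM in the PBS libraries in the same order. Under GA it gave 3029, 2622, 3343, 3149 and 2865 CPM. Libraries 394_1, 394_2 and 400_3 were below all PBS libraries, and the remaining pair fell inside the PBS range. The means were 3232 ± 180 and 3002 ± 275 CPM, a log2 fold change of -0.11 with an SE of 0.068 (95% interval -0.25 to 0.04, edgeR adjusted p = 0.895). The exact permutation p was 0.151. *Cask*, on the strand opposite *Gpr34* with 0 exon bases in common, gave 112.7 ± 9.84 CPM under PBS and 99.4 ± 2.43 CPM under GA (log2 fold change -0.18, edgeR unadjusted p = 0.0185, adjusted p = 0.847). *Med12l*, around *P2ry12* and *P2ry13*, gave 88.5 ± 17.5 and 83.3 ± 10.7 CPM and shares 9 exon bases with *P2ry12*. The library kit does not mark strand, so reads from such opposite genes cannot be told apart where their exons meet.

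*P2ry6*, the UDP receptor linked to phagocytosis, gave 339.6, 338, 325, 410.2 and 331 CPM in the PBS libraries. The corresponding GA values were 332, 318, 288, 324 and 333 CPM. The PBS library 388_4 stood above all others, and 394_2, 400_1 and 400_2 lay below every PBS library. The means were 349 ± 34.8 and 319 ± 18.2 CPM, a log2 fold change of -0.13 with an SE of 0.073 (95% interval -0.28 to 0.03, edgeR adjusted p = 0.895, exact permutation p = 0.0714). Without 388_4 the log2 fold change was -0.06 (edgeR adjusted p = 0.998), and 388_4 was also the library with the most border-associated macrophage marker counts, whose part in the *P2ry6* value was not tested. Over 13 alternatives the exact permutation p was under 0.05 in 1, without the PBS library 388_3 (p = 0.0317, log2 difference -0.15), and reached 0.214 without the GA library 400_1.

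**Figure D2:**
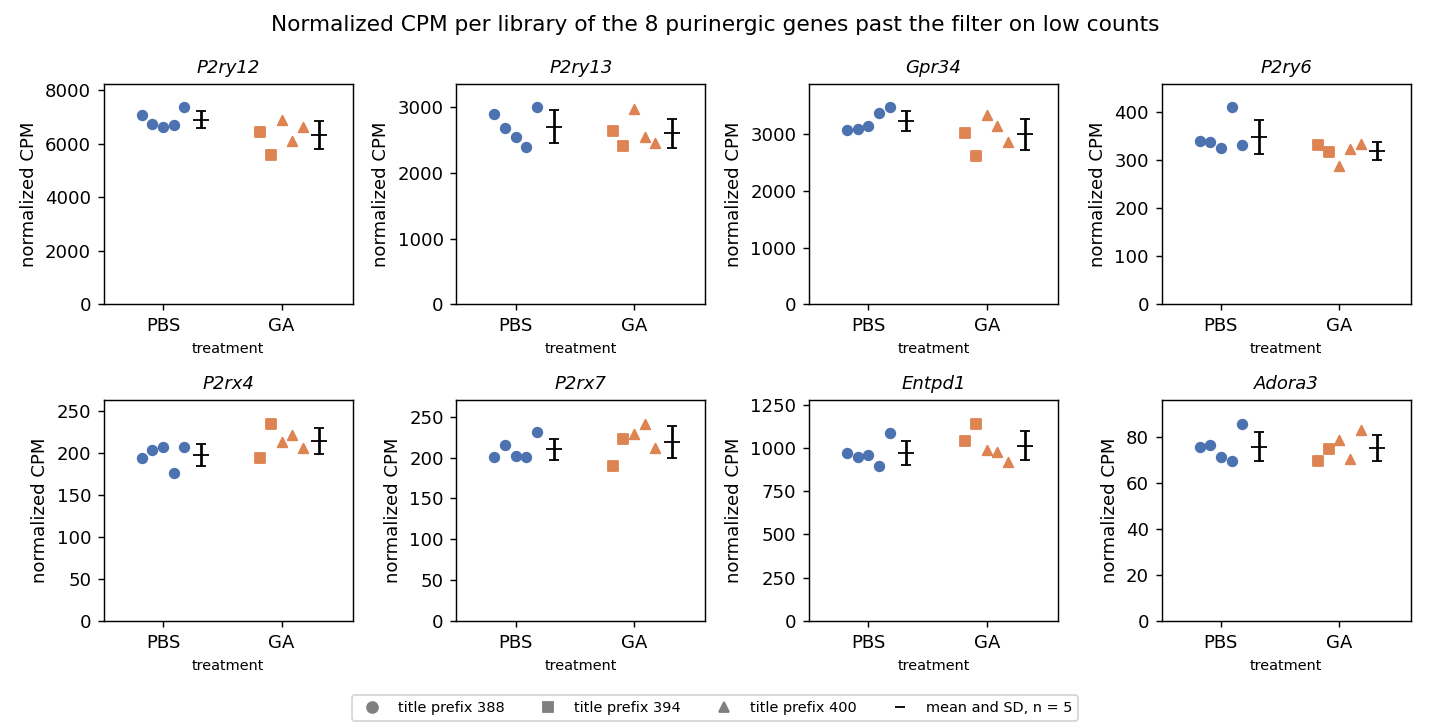
Normalized CPM in each library for the 8 genes past the filter, PBS and GA side by side, marker shape giving the title prefix and black bars the mean and SD of 5 libraries. The groups overlap in every panel, and the *P2ry6* panel shows PBS library 388_4 apart at 410.2 CPM.

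The P2X channels lay slightly higher on average under GA, within the spread between libraries. *P2rx4*, the channel that microglia upregulate after nerve injury, gave 194, 203, 208, 177 and 207 CPM in the PBS libraries. Under GA the values were 194, 235, 213, 222 and 207 CPM. Here 394_2, 400_1 and 400_2 were above every PBS library, while 394_1 and 400_3 were not. The means of 198 ± 12.9 and 214 ± 15.5 CPM gave a log2 fold change of 0.11 with an SE of 0.069 (95% interval -0.03 to 0.26, edgeR adjusted p = 0.895, exact permutation p = 0.127). Over 13 alternatives the exact permutation p was under 0.05 in 1, without the GA library 394_1 (p = 0.0476, log2 difference 0.15), and reached 0.270 without the GA library 394_2. Without the PBS library 388_4 the log2 fold change was 0.08.

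*P2rx7*, the channel whose opening at high ATP precedes interleukin-1β release, gave 200.5, 215, 202, 201 and 231 CPM in the PBS libraries. The GA libraries gave 189.5, 222, 229, 241 and 212 CPM. The highest value (400_2) and the lowest (394_1) both came from GA libraries, so the PBS range lay inside the GA range. The means were 209.8 ± 13.4 and 219 ± 19.5 CPM (log2 fold change 0.06, SE 0.073, 95% interval -0.10 to 0.22, edgeR adjusted p = 0.949). Its sign turned, to -0.02, when the GA libraries of prefix 394 alone were compared with PBS, and the log2 fold change was 0.11 without the GA library 394_1 and 0.03 without the GA library 400_2. The ratio of *P2rx4* to *P2rx7* counts was 0.944 ± 0.0592 under PBS and 0.982 ± 0.0584 under GA (exact permutation p = 0.333). Its log2 difference of 0.06 was 0.09 without the PBS library 388_3 and 0.03 without the GA library 394_2.

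Of the enzymes, *Entpd1* was abundant and *Nt5e* was barely counted, so that the CD39 step of adenosine production was represented in these libraries far more than the CD73 step. *Entpd1* gave 968, 946, 957, 895 and 1085 CPM in the PBS libraries. The GA libraries gave 1039, 1139, 987, 979 and 919 CPM. Only 394_2 exceeded the highest PBS library. The means were 970.2 ± 70.1 and 1012 ± 82.5 CPM (log2 fold change 0.06, SE 0.070, 95% interval -0.09 to 0.21, edgeR adjusted p = 0.945). With the GA libraries of prefix 400 alone the log2 fold change was -0.01, and without the PBS library 388_5 it was 0.11.

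*Nt5e* had 5, 9, 1, 7 and 0 counts in the PBS libraries and 10, 0, 1, 0 and 9 counts in the GA libraries. Both groups held libraries at 0, and the sums of 22 and 20 counts did not separate them. A count of 0 allows up to 3 counts, or 0.0786 to 0.0850 CPM in these libraries, by counting error alone. Over the summed counts there were 7598 *Entpd1* counts for each *Nt5e* count under PBS (exact 95% binomial interval 5018 to 12125) and 9123 under GA (5907 to 14936), intervals that cover counting error only. Leaving out 1 library moved these values to between 5858 (without 388_5) and 10423 (without 388_2) under PBS, and to between 7094 (without 394_2) and 14780 (without 394_1) under GA. With 1 count added to each gene in each library, the log2 ratio was 13.04 ± 1.52 under PBS and 13.60 ± 1.79 under GA (two-sided exact permutation p = 0.579). The merged exons of *Nt5e* span 8602 bases against 5580 for *Entpd1*, and the longest transcripts 3995 against 4221 bases.

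The adenosine receptors differed from each other in the same way. *Adora3* gave 75.6, 76.3, 71.2, 69.3 and 85.5 CPM under PBS. The GA libraries gave 69.4, 74.5, 78.5, 70.2 and 83.1 CPM, all within the PBS range. The means of 75.6 ± 6.28 and 75.2 ± 5.72 CPM gave a log2 fold change of -0.01 with an SE of 0.077, and the 95% interval of -0.17 to 0.16 spans a fall by 11.3% to a rise of 11.5% (edgeR adjusted p = 0.993). *Adora2a*, the receptor through which adenosine retracts the processes of activated microglia, had 6, 0, 0, 0 and 0 counts in the PBS libraries and 3, 0, 0, 7 and 6 in the GA libraries, 6 and 16 in all. Both *Adora2a* and *Nt5e* failed the filter and had at most 10 counts in a library, so a small difference was not detectable at this depth. The two-sided exact permutation test gave p = 0.405 for *Adora2a* (log2 difference 0.48) and p = 0.786 for *Nt5e* (-0.21).

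**Figure D3:**
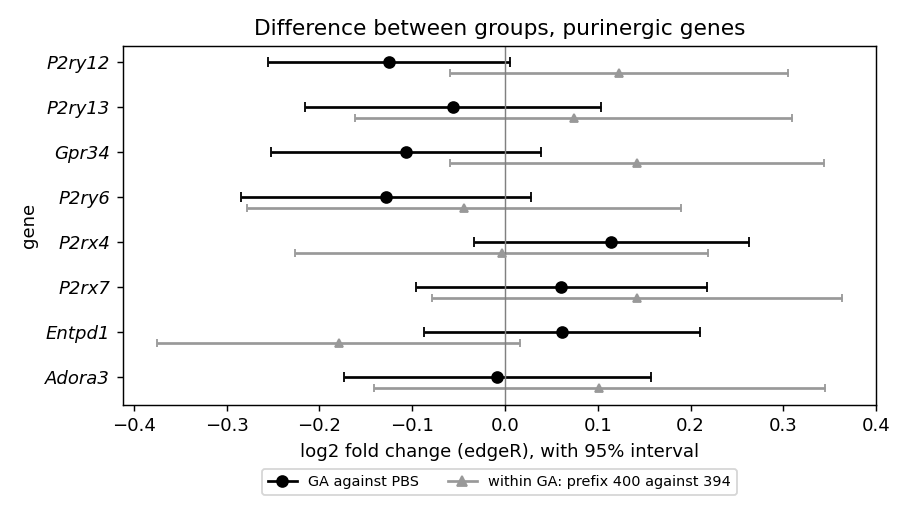
log2 fold change with its 95% interval for GA against PBS (black) and, within GA, for title prefix 400 against 394 (grey), for the 8 genes tested. Every interval includes 0, and *P2ry12* under GA against PBS comes nearest to leaving it, with an upper bound of 0.01.

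The GA libraries of the different prefixes were compared in a fit with 3 groups, and no member was called there either. The largest difference was that of *Entpd1*, lower by 0.18 in prefix 400 than in prefix 394 on the log2 scale (edgeR unadjusted p = 0.0695, adjusted p = 0.947), from means of 1089 CPM (394) and 961 CPM (400). *Gpr34* and *P2rx7* were each higher by 0.14 in prefix 400 and *P2ry12* by 0.12, with unadjusted edgeR p of 0.151, 0.187 and 0.169. For *P2ry12* the means were 6890 CPM in prefix 388, 5999 CPM in 394 and 6533 CPM in 400. Its log2 fold change against PBS was -0.19 with prefix 394 alone and -0.07 with prefix 400 alone. Over the 8 genes the log2 differences between prefixes 400 and 394 ran from -0.18 to 0.14, against -0.13 to 0.11 between the treatments. The 2 ranges are not like measures. The prefixes set 3 libraries against 2, with SEs of 0.085 to 0.113, and the treatments 5 against 5, with SEs of 0.061 to 0.077.

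For the 8 members past the filter, the coefficient of variation over 5 libraries ran from 4.58% (*P2ry12*) to 9.99% (*P2ry6*) under PBS, where the 4021 tested genes above 50 CPM had a median of 9.96%. Under GA it ran from 5.71% (*P2ry6*) to 9.15% (*Gpr34*), around a median of 6.48% for the same genes. Of the 8 members 7 were below that median under PBS and 7 were above it under GA. No test was made of this.

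**Figure D4:**
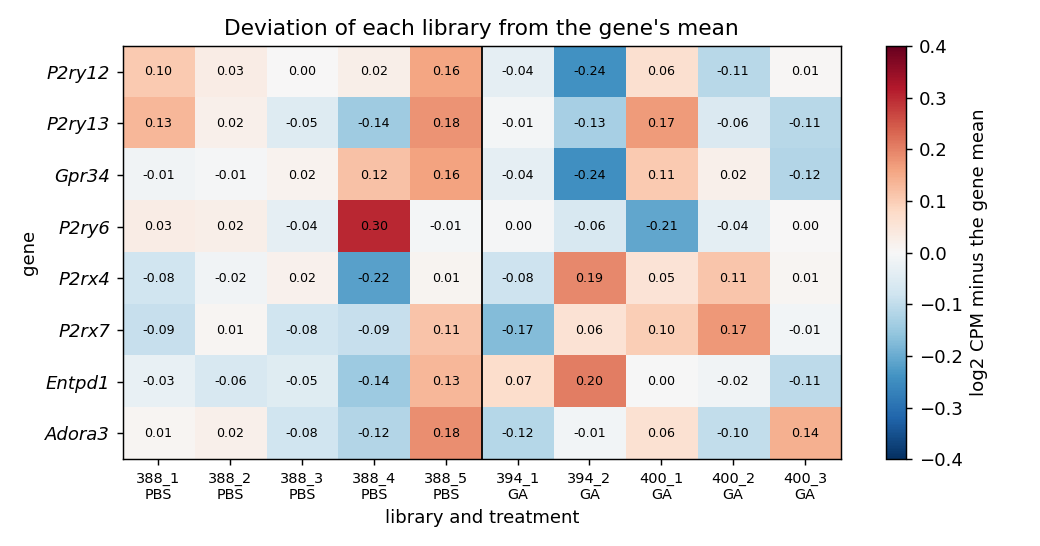
Deviation of each library from the gene's mean over 10 libraries, as log2 CPM, for the 8 genes tested, with PBS libraries left of the black line and GA libraries right of it. The deepest cells are *P2ry6* in 388_4 (0.30) and *P2ry12* and *Gpr34* in 394_2 (-0.24 each).

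The heat map of deviations shows which libraries carried the spread. Library 394_2 (GA) had the lowest *P2ry12* and *Gpr34*, both 0.24 below the gene's mean on the log2 scale, and the highest *Entpd1* and *P2rx4*, 0.20 and 0.19 above it. That library also had the highest sum of 8 immediate early genes, 929 CPM against 434 to 794 CPM in the others. *Jun* alone gave 508.7 CPM of the 929 CPM. *Fosb* and *Egr1* were also highest in 394_2, whereas *Fos*, *Junb*, *Ier2* and *Dusp1* were highest in 388_4 and *Nr4a1* in 394_1. The part of the immediate early genes in the member values was not tested. Library 388_5 (PBS), which had the lowest TMM factor (0.9542), was highest for *P2ry12*, *P2ry13*, *Gpr34* and *Adora3* after TMM only. By total count, without TMM, 388_1 (PBS) was above it for *P2ry12* (7176 against 7010 CPM) and *P2ry13* (2941 against 2863 CPM). On that scale 388_4 (PBS) was above it for *Gpr34* (3366 against 3314 CPM), and a GA library for *Adora3* (83.27 against 81.54 CPM). Library 388_4 (PBS) was highest for *P2ry6* and lowest for *P2rx4*, *P2ry13*, *Entpd1* and *Adora3*. Without 394_2 the log2 fold change of *P2ry12* was -0.08, that of *Gpr34* -0.06 and that of *Entpd1* 0.02, each nearer to 0 than the value over all libraries.

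Over the 10 libraries, 28 pairs of members were compared by permutation tests of their log2 CPM. No pair passed an adjusted p of 0.05 by Pearson's r, where the smallest adjusted permutation p was 0.176. By Spearman's rho 1 pair passed, *P2ry6* and *P2rx4*, which ran in opposite directions (rho = -0.891, permutation p = 0.00114, adjusted p = 0.0319, with Pearson's r = -0.756, permutation p = 0.0228, adjusted p = 0.176). Its r was -0.85 without 388_4 and 400_1, the libraries farthest from the *P2ry6* median, -0.468 without 388_4 alone and -0.661 after the group means were removed. The call was lost in each alternative run: rho was -0.564 with CPM by total count, -0.600 with the group means removed and -0.850 without 388_4 (adjusted permutation p of 0.542, 0.457 and 0.0825). The neighbours *P2ry12* and *P2ry13* gave r = 0.712 and rho = 0.721 (permutation p = 0.0161 and 0.0241, adjusted p = 0.176 for r, r = 0.566 without 388_5 and 394_2). The neighbours *P2rx4* and *P2rx7* gave r = 0.691 and rho = 0.770 (permutation p = 0.0252 and 0.0129, adjusted p = 0.176 for r, r = 0.859 without 388_4 and 394_2). *P2ry12* and *Gpr34* gave r = 0.759 and rho = 0.539 (permutation p = 0.0142 and 0.113, adjusted p = 0.176 for r), which fell to r = 0.159 without 388_5 and 394_2, so this relation rested on those libraries.

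The genes whose log2 CPM followed each member most closely over the 10 libraries were picked as the 2 highest of all tested genes, and their r is a description of that choice. For *P2ry13* these were the fructose transporter *Slc2a5* (r = 0.932) and the fractalkine receptor *Cx3cr1* (r = 0.925), both microglial genes, and for *P2ry12* they were *Caml* (0.930) and *Susd3* (0.907). *Gpr34* went with *Nxpe3* (0.934) and *Ppib* (0.928), and *P2ry6* with *Aatf* (0.956) and *Taok1* (0.945). *P2rx4* went with *Pom121* (0.951) and *Vezt* (0.949), *P2rx7* with *Slc22a15* (0.957) and *Naip2* (0.935), *Entpd1* with *Man1a* (0.919) and *Stxbp5* (0.916), and *Adora3* with *Gapdhs* (0.948) and *Srsf9* (0.948). *Slc22a15* and *Gapdhs* were barely counted, with means of 0.525 and 0.427 CPM, so counting error weighs heavily on their r. No member was among another member's 2 closest genes.

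The rest of the purinergic pathway was covered by lists of other receptors, enzymes, transporters and downstream genes, and 0 of the 32 genes tested were called by edgeR at an unadjusted p under 0.05 (5.75% of all genes) or after adjustment (0%). Of 8 other P2Y and related receptors 3 were tested, with *P2ry10b* at 26.8 ± 4.72 CPM under PBS and 28.4 ± 3.91 CPM under GA, *P2ry2* at 4.14 ± 1.45 and 4.04 ± 1.44 CPM and *P2ry14* at 0.491 ± 0.249 and 0.592 ± 0.386 CPM, while *P2ry4* and *Gpr17* had 0 counts in every library. Of 5 other P2X channels 2 were tested, with *P2rx1* at 32.4 ± 4.18 and 32.8 ± 4.504 CPM and *P2rx6* at 0.679 ± 0.579 and 0.789 ± 0.602 CPM. The adenosine A1 receptor *Adora1*, the 1 tested of 2 others, had 3.23 ± 1.27 and 3.75 ± 1.75 CPM.

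Of 11 other ectoenzymes and relatives of *Entpd1* 5 were tested, with *Entpd6* at 56.1 ± 7.35 and 59.4 ± 2.73 CPM, *Entpd5* at 24.5 ± 2.30 and 24.1 ± 2.74 CPM, and *Entpd7* at 17.6 ± 2.23 and 15.3 ± 1.72 CPM (edgeR unadjusted p = 0.105). *Enpp2*, the autotaxin gene, had 0.591 ± 1.123 and 1.165 ± 1.125 CPM (edgeR unadjusted p = 0.344). Of 10 genes of nucleoside transport and metabolism 9 were tested. The lysosomal nucleoside transporter *Slc29a3* had 676 ± 51.1 and 644 ± 40.6 CPM, the plasma membrane transporter *Slc29a1* 135 ± 15.6 and 146 ± 6.26 CPM, and the purine nucleoside phosphorylase gene *Pnp* 97.0 ± 7.96 and 90.0 ± 4.39 CPM. Of 5 genes of nucleotide release 3 were tested, among them the ATP-permeable channel *Panx1* with 11.6 ± 2.01 and 13.6 ± 1.59 CPM (edgeR unadjusted p = 0.115) and the vesicular nucleotide transporter *Slc17a9* with 16.9 ± 2.44 and 16.3 ± 0.931 CPM.

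All 9 downstream genes were tested. *Gnai2*, a Gi subunit through which P2RY12 signals, had 1009 ± 78.5 CPM under PBS and 956 ± 17.8 CPM under GA (edgeR unadjusted p = 0.218). The PI3K subunit gene *Pik3cg* had 438 ± 42.4 and 455 ± 21.8 CPM. The calcium sensor *Stim1* had 46.9 ± 2.56 and 44.5 ± 4.995 CPM. In each of these genes the groups overlapped.

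*P2ry12* is also carried by platelets, which the CD45int CD11b+ gate would leave out when free, and platelet markers were counted beside it. The 4 markers summed to between 31.7 and 36.9 CPM in PBS libraries and between 26.6 and 30.2 CPM in GA libraries, without overlap, and nearly all of this was *Gp9* (33.4 ± 1.99 and 28.7 ± 1.36 CPM, log2 fold change -0.22, edgeR unadjusted p = 0.0126, adjusted p = 0.847). Of the other listed markers, *Gp1bb* had 0 counts in every library, *Ppbp* had at most 4 counts in a library, and *Itga2b* had 0.246 ± 0.300 CPM under PBS and 0.264 ± 0.307 CPM under GA. The part of platelet RNA in the *P2ry12* value was not tested.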

How the data were processed

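The 10 members and all gene lists were chosen with earlier results of these data known. The RNA was pre-amplified by a SMARTer kit that does not mark strand. The authors deposited raw counts of reads per gene without normalization. The submitters' processing notes name bcl2fastq 2.19.0, fastp 0.20.0, STAR 2.7.0f, Subread 1.6.4 with featureCounts, DESeq2 and the build GRCm38.p6. The annotation and the strand setting of the counting are not given in the sources used here. All 10 columns were matched to a sample by title, and the chi-square per degree of freedom over the 45 pairs of libraries ran from 13.0 to 50.9, so none was a copy.

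Groups came from the treatment label. Low genes were dropped (filterByExpr, 10 counts), libraries were scaled by TMM, and the groups were tested in edgeR 4.0.16 (quasi-likelihood F-test, two-sided, no covariate, Benjamini-Hochberg over 14481 genes, threshold 0.05) in R 4.3.3. For single genes, log2(CPM + 0.1) was also put to an exact permutation test, two-sided, as were the 3 ratios, and correlations were tested with 100000 resamples. RPKM used merged exons of GENCODE M21, a build equal to that of the notes. Intervals and limits of detection cover counting error or library spread only, since amplified reads carry no molecular identifiers. The scripts were tested on simulated data. Alternatives were DESeq2 1.42.0, its size factors in edgeR, limma-voom (limma 3.58.1), robust fits, other filters and pseudocounts, CPM by total count, either GA title prefix alone, a mean per prefix, and each library left out. The named genes were the 10 members, the 2 of highest level and the 2 of smallest p in each pathway list, genes overlapping a member, and the 2 most like each member, with others named where a count was small. Beside the marker lists in the report, summed CPM over all libraries ranged from 0.689 to 1.52 for T and NK cell, 16.4 to 27.0 for B cell, 2.36 to 8.30 for astrocyte, 77.2 to 111 for oligodendrocyte, 0.300 to 1.74 for neuron and 62.0 to 75.7 for endothelial cell markers.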

Additional observations from a re-analysis of the deposited data

Results flagged for a closer look

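Among 20 sets of 5 values (each of the 10 genes in each group), 2 held a library far from the others by Dixon's criterion, which picks about 1 in 20 sets of normally distributed values by chance. *P2ry6* in PBS library 388_4 reached 410.2 CPM against 325 to 339.6 CPM in the other PBS libraries, a gap of 0.827 of the group's whole range. *Adora2a* in PBS library 388_1 was at 0.157 CPM, 6 counts, where the other PBS libraries had 0 counts, a level near the limit of detection. A set with counts in a single library always meets the criterion, so that rate does not apply to *Adora2a*.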

How the results depend on the processing

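The 8 tested members stayed uncalled by edgeR, DESeq2 and limma-voom in every fit run, with adjusted p from 0.657 to 1. *P2ry12*, *P2ry13*, *P2ry6* and *Gpr34* stayed lower and *P2rx4* stayed higher on average under GA in each of them. Signs turned for *P2rx7* (-0.0206, prefix 394 only), *Entpd1* (-0.0078, prefix 400 only) and *Adora3* (0.001118 without a filter, 0.0369 with prefix 400 only, and -0.046 to 0.0446 when a library was left out, or -0.0443 to 0.0379 as a permutation difference); the cause was not tested. Genes called after adjustment numbered 0 by edgeR and 2 by DESeq2, and 0 to 1 when a library was left out, the 1 without 394_1. Genes at an unadjusted p under 0.05 numbered 833, against 1901 without a filter, which tested more genes (27564), 503 with prefix 394 only (977 with prefix 400 only; the cause was not tested), and 595 to 1137 with a library left out. Genes whose groups did not overlap numbered 129, against 200 to 362 with a library left out, where fewer libraries must separate. The count of member pairs past the adjusted Spearman p fell from 1 to 0 with CPM by total count, with group means removed and without 388_4. The log2 difference of the ratio of *P2ry12* to *P2ry13* ran from -0.11 (exact permutation p = 0.0317, without 400_3) to -0.0395. That of *Entpd1* to *Nt5e*, with 1 count added, was 0.56 and ran from 0.129 to 1.10 with a library left out. No paired analysis was possible because the title numbers repeat within the GA group and no label ties a GA library to a PBS library. The depth limits *Nt5e* and *Adora2a*, which had at most 10 counts in a library.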
